A study of Mus musculus with 4 samples.

Results

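The genes described here encode growth factors that have been linked to the repair of myelin: Igf1, Tgfb1, Pdgfa, Pdgfb, Fgf2, Bdnf, Lif, Cntf, Hbegf and Inhba. They were taken by gene symbol, and 9 of the 10 had a probe set that the array annotation assigns to that gene alone, out of 22180 genes measured in that way. Each of the 9 had 1 such probe set. Cntf was the exception, because its probe set also carries the symbols Zfp91 and Gm44505.

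RNA came from N9, a mouse microglial line that has been immortalised. The cells had been given 10 µM nimodipine (1 array), 20 µM nimodipine (1 array) or vehicle (2 arrays). Nimodipine belongs to the dihydropyridines, which block calcium channels of the L type. The labels mention a respective vehicle without saying which vehicle array belongs to which dose, and they do not say that the arrays came from separate cultures, so the spread between arrays may be technical. The length of treatment is not given in the sources used here. A cell line in culture holds no oligodendrocytes to respond, so only transcript levels in the microglia-derived cells themselves were measured.

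Myelin is made by oligodendrocytes, which arise from progenitor cells throughout life. Microglia can release factors that act on these cells. Platelet-derived growth factor A and fibroblast growth factor 2 act on progenitors as mitogens, insulin-like growth factor 1 favours survival and myelin synthesis, and activin A, a dimer of the Inhba product, has been described in mice as a microglial signal for oligodendrocyte differentiation. Ciliary neurotrophic factor and leukaemia inhibitory factor share receptor chains and promote oligodendrocyte survival, and brain-derived neurotrophic factor acts through the TrkB receptor. Several of these ligands are made as precursors and are released or activated by proteases.

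Regulatory sequence is shown for Bdnf and Lif, which each had a window with a match to an element named below. Their transcription is known to respond to calcium or to AP-1 factors. RefSeq windows (GRCm38.p6) running from 250 bases before to 50 bases after a transcription start were at hand for 8 of the 10 genes, 15 windows in all. Both strands were searched for the cAMP and calcium response element TGACGTCA, its variant TCACGTCA and the AP-1 element TGAGTCA. Of 32851 windows in the table, 1.79% held TGACGTCA, 0.441% held TCACGTCA and 5.2% held TGAGTCA. Among the 15 windows, of which 7 belong to Bdnf and 2 to Pdgfa, 3 held a match to any of the 3 elements. The share of all windows with a match to any of them was not computed. The windows of Tgfb1, Pdgfa, Fgf2, Igf1 and Inhba held none. The third of the 7 Bdnf windows held TCACGTCA 38 bases before the start. In rodent neurons, a response element of these letters in a Bdnf promoter is bound by CREB after calcium enters through L-type channels. The single Lif window held the AP-1 letters on the opposite strand, 228 bases before the start. The Cntf window held an AP-1 match as well, which is not shown. The stretches below lie upstream of the start on the plus strand, Bdnf at chr2:109692338-109692435 and Lif at chr11:4257318-4257376, with the matched letters in capitals.
Bdnf: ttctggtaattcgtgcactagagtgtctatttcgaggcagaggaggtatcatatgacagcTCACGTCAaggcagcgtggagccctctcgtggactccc
Lif: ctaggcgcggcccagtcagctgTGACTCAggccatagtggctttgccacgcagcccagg
These matches are letters in a window and say nothing of whether a factor was bound in N9 cells. The array has 1 probe set for Bdnf, so transcripts from its 7 starts could not be told apart.

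None of the 9 growth factors reached a log2 difference of 1, that is 2-fold, at either dose. At 10 µM 0 of 9 did so, beside 1.57% of all genes, and at 20 µM 0 of 9, beside 0.0857% of all genes. Between the vehicle arrays the share of all genes was 0.113%, and again 0 of 9 growth factors were among them. With a log2 difference of 0.5 as the limit the count was still 0 of 9 at each dose, beside 10.1% of all genes at 10 µM and 2.74% at 20 µM. The largest difference from the vehicle mean was 1.33-fold at 10 µM and 1.26-fold at 20 µM, while the vehicle arrays differed from each other by up to 1.32-fold for the same genes. The median size of the differences was 0.18 at 10 µM and 0.11 at 20 µM for the 9 genes, and 0.17 and 0.13 for all genes on the log2 scale.

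With nimodipine taken as 1 group, limma called 0 of 9 growth factors at an adjusted p of 0.05, beside 0% of all genes. None of the 9 had an unadjusted p under 0.05, as 5.37% of all genes did (1191 genes). The adjusted p values of the 9 ran between 0.792 and 0.992. No gene of the 22180 had a lower adjusted p than 0.792 in this comparison. Genes with different log2 differences share that value, so it does not rank them. The group holds 1 array at each dose, so its spread includes the difference between the doses. In every limma fit here, the eBayes step moves the spread of a gene towards a value drawn from all genes. In a fit of 3 groups, in which each single-array group is assumed to have the spread of the vehicle pair, limma called 0 of 9 at either dose, beside 1.59% of all genes at 10 µM and 0% at 20 µM. Their adjusted p values were between 0.388 and 0.960 at 10 µM and between 0.785 and 0.976 at 20 µM.

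**Figure D1:**
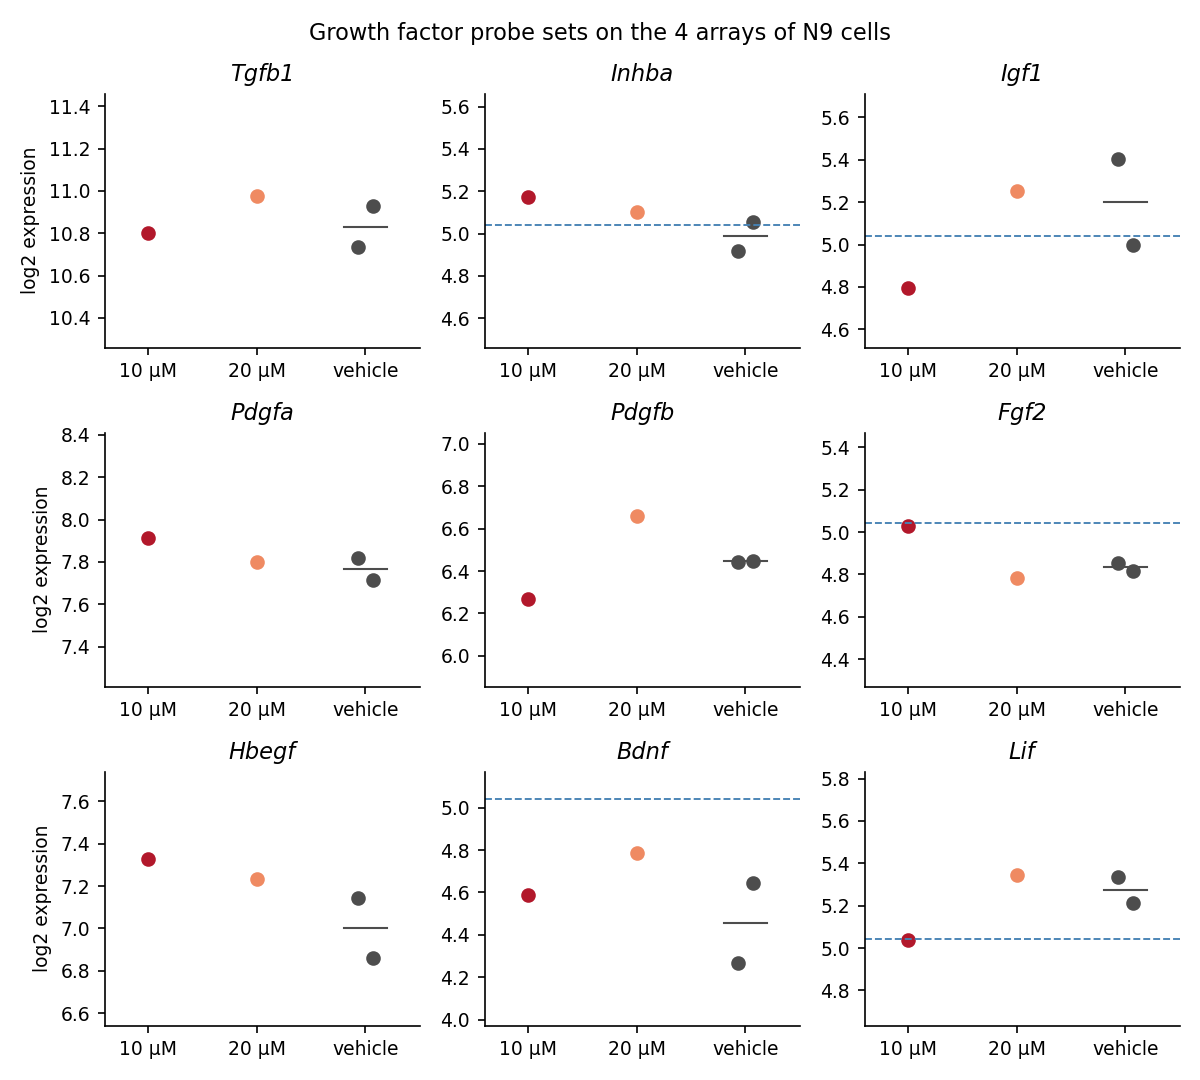
Log2 expression of each growth factor probe set on the 10 µM array, the 20 µM array and the 2 vehicle arrays (points, with a line at the vehicle mean). Every panel spans the same range on the log2 scale, and the dashed blue line is the median of all deposited values (5.04), which lies within the panels of Inhba, Igf1, Fgf2, Bdnf and Lif.

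The genes fell into 2 kinds by signal. Tgfb1, Pdgfa, Hbegf and Pdgfb lay above the median of all deposited values (5.04 on the log2 scale) on all 4 arrays, with means 5.82, 2.77, 2.10 and 1.41 above it. Lif, Igf1, Inhba, Fgf2 and Bdnf had means between -0.47 and 0.19 from that median, which is close to the level where a probe set may carry little beyond background. The deposited values hold no detection call, so a change in these 5 genes could be understated. In bulk RNA, fewer expressing cells and less RNA per cell cannot be told apart.

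Of the ligands of the transforming growth factor family, Tgfb1 lay well above the median of all values. It encodes transforming growth factor beta 1, on which adult mouse microglia depend for their identity, and lies at chr7:25687002-25705077 (GRCm38.p6). Tgfb1 stood at 10.80 at 10 µM and 10.98 at 20 µM, against 10.73 and 10.93 in the vehicle arrays. The 10 µM array lay between the vehicle arrays and the 20 µM array just above both. For nimodipine against vehicle the log2 difference was 0.059 ± 0.14 (limma SE, 2 arrays a group; adjusted p = 0.952). The 95% interval leaves room for a rise of 1.33-fold or a decrease of 1.23-fold, and for each dose alone, in the fit of 3 groups, the limits were 1.29-fold up and 1.34-fold down at 10 µM and 1.45-fold up and 1.18-fold down at 20 µM. A 2-fold change in either direction lay outside all 3 intervals. The intervals for a dose take a spread drawn from the vehicle pair and from all genes, which the data cannot check for a single array. The spread between arrays may also be technical, so a 2-fold change is not excluded.

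Inhba, which encodes the beta A chain of activins and of inhibin A, stood at 5.17 at 10 µM and 5.10 at 20 µM, against 4.92 and 5.06 in the vehicle arrays. Each dose exceeded both vehicle arrays, but the values straddled the median of all values and the log2 difference was 0.15 ± 0.13 (limma SE; adjusted p = 0.837).

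Igf1 encodes insulin-like growth factor 1, which microglia supply to developing white matter in mice. Igf1 stood at 4.80 at 10 µM and 5.25 at 20 µM, against 5.40 and 5.00 in the vehicle arrays. The 10 µM array was the lowest of the 4, and the 20 µM array lay between the vehicle arrays. The log2 difference at 10 µM was -0.41, which is as large as the difference between the vehicle arrays, also -0.41 (vehicle 2 minus vehicle 1). Set against single vehicle arrays, the 10 µM value differed by -0.20 from vehicle 2 and by -0.61 from vehicle 1. The difference at 10 µM was the largest of the 9 from the vehicle mean, but not from vehicle 2 alone, where Hbegf (0.47) and Fgf2 (0.22) differed by more. In the fit of 3 groups the interval at 10 µM ran from -0.91 to 0.094 (limma adjusted p = 0.388).

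The genes most like Igf1 over the 4 arrays were Rrp1b, Lonp2 and Slx4ip, chosen by the Euclidean distance between profiles centred on their own mean (0.041, 0.048 and 0.057 on the log2 scale). Rrp1b stood at 7.83 at 10 µM and 8.24 at 20 µM, against 8.41 and 8.03 in the vehicle arrays. With 4 arrays, such likeness rests on few points.

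Pdgfa and Pdgfb encode the A and B chains of platelet-derived growth factor, which pair into dimers that bind the receptors encoded by Pdgfra and Pdgfrb. Pdgfa stood at 7.91 at 10 µM and 7.80 at 20 µM, against 7.82 and 7.71 in the vehicle arrays. The 10 µM array was the highest of the 4 and the 20 µM array lay between the vehicle arrays. The log2 difference for nimodipine was 0.092 ± 0.13 (limma SE; adjusted p = 0.896).

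Pdgfb stood at 6.27 at 10 µM and 6.66 at 20 µM, against 6.44 and 6.45 in the vehicle arrays. The 10 µM array lay below both vehicle arrays and the 20 µM array above both, an order found for 2 of the 9 (Pdgfb and Lif) and for 8.52% of all genes. The doses had opposite signs, and in the comparison of groups the log2 difference was 0.018 ± 0.17 (limma SE; adjusted p = 0.992). The vehicle arrays differed by 0.0069 for Pdgfb, less than for any other of the 9, so the place of the doses outside them rests on a very narrow vehicle range.

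Fgf2, which encodes basic fibroblast growth factor, stood at 5.03 at 10 µM and 4.78 at 20 µM, against 4.85 and 4.81 in the vehicle arrays. All 4 values lay below the median of all values. The 10 µM array lay above both vehicle arrays and the 20 µM array below both, as for 10.4% of all genes. The log2 difference was 0.072 ± 0.14 (limma SE; adjusted p = 0.935).

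Hbegf encodes heparin-binding EGF-like growth factor, a membrane-anchored ligand of the EGF receptor that metalloproteases shed from the cell. Hbegf stood at 7.33 at 10 µM and 7.23 at 20 µM, against 7.14 and 6.86 in the vehicle arrays. Each dose exceeded both vehicle arrays, as was so for 2 of the 9 growth factors (Hbegf and Inhba) and for 19.2% of all genes. The log2 difference was 0.28 ± 0.15 (limma SE, 2 arrays a group; adjusted p = 0.792), beside -0.28 between the vehicle arrays. Its interval ran from -0.089 to 0.65. It was the largest group difference of the 9 with both vehicle arrays, but it was 0.42 against vehicle 2 alone and 0.14 against vehicle 1 alone, where Bdnf (0.42), Igf1 (-0.38), Inhba (0.22), Tgfb1 (0.16) and Lif (-0.14) differed by more.

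Bdnf and Lif are signals of the neurotrophin and interleukin 6 families. Bdnf stood at 4.59 at 10 µM and 4.79 at 20 µM, against 4.27 and 4.64 in the vehicle arrays. All 4 values lay below the median of all values, and the vehicle arrays differed by 0.37, more than the log2 difference of 0.33 at 20 µM. For the groups the difference was 0.23 ± 0.17 (limma SE; adjusted p = 0.814). It depended on the vehicle array, at 0.044 against vehicle 2 alone and 0.42 against vehicle 1 alone.

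Lif stood at 5.04 at 10 µM and 5.34 at 20 µM, against 5.34 and 5.21 in the vehicle arrays. The 10 µM array was the lowest and the 20 µM array the highest of the 4, the latter by only 0.0075 over vehicle 1. The log2 difference was -0.083 ± 0.16 (limma SE; adjusted p = 0.932).

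The probe set that Cntf shares with Zfp91 and Gm44505 stood at 8.46 at 10 µM and 8.17 at 20 µM, against 8.47 and 8.28 in the vehicle arrays. What part of that signal is Cntf cannot be told apart, and it entered no count.

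**Figure D2:**
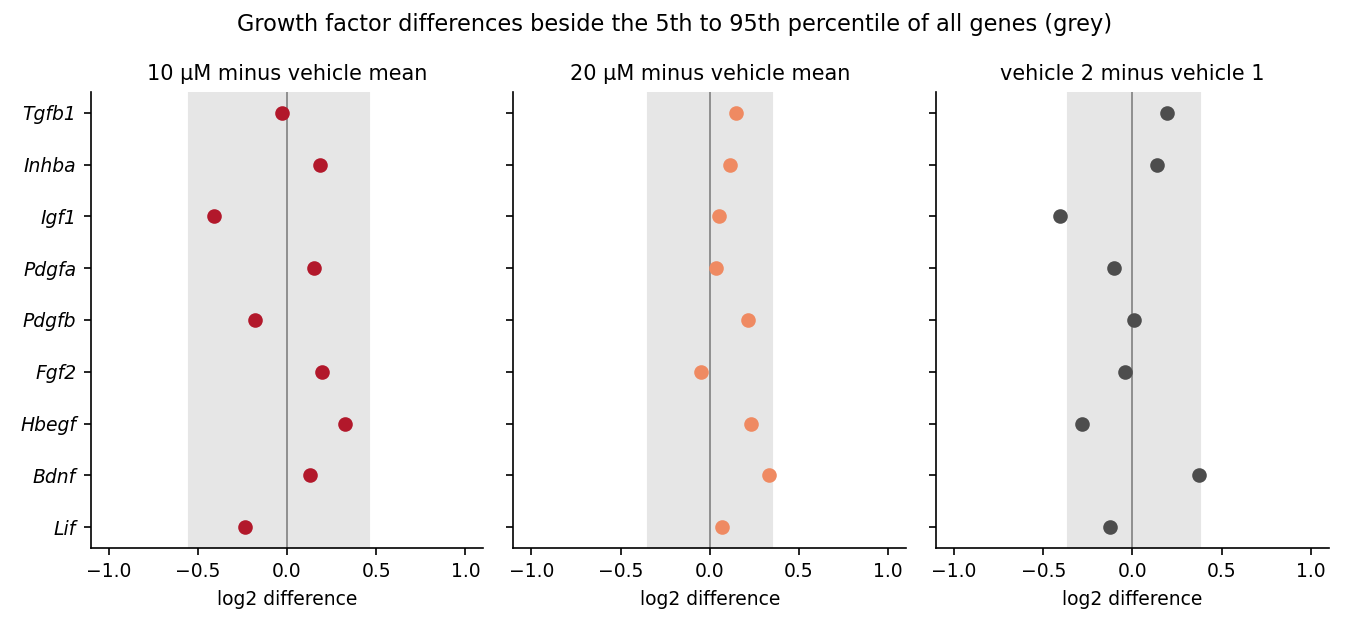
Log2 differences of the 9 growth factors for 10 µM minus the vehicle mean, 20 µM minus the vehicle mean and vehicle 2 minus vehicle 1 (points), over the range that holds all genes from the percentile 5 to the percentile 95 (grey). All points of both doses lie inside the grey range, and among the vehicle differences only that of Igf1 (-0.41) lies outside it.

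The direction of the differences was mixed at 10 µM, where 5 growth factors were higher than the vehicle mean and 4 lower, beside 52.4% of all genes higher. At 20 µM 8 of 9 were higher and only Fgf2 was lower (-0.051), beside 49.3% of all genes higher. The median of the 9 differences at 20 µM was 0.11, against a median of -0.0028 for all genes. This count changed with the vehicle array: against vehicle 2 alone 8 of 9 were higher, and against vehicle 1 alone 6 of 9. The shares of all genes higher were 48.8% and 50.5% in those comparisons.

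The vehicle range was left by 7 of 9 growth factors at 10 µM, beside 74.5% of all genes, and by 7 of 9 at 20 µM, beside 69.6%. At 10 µM 4 lay above both vehicle arrays (39.1% of all genes) and 3 below both (35.4%). At 20 µM 6 lay above (34.5%) and 1 below (35.1%). The shares outside the range were close to those of all genes. Both doses are set against the same vehicle arrays, so their differences are not independent of each other.

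**Figure D3:**
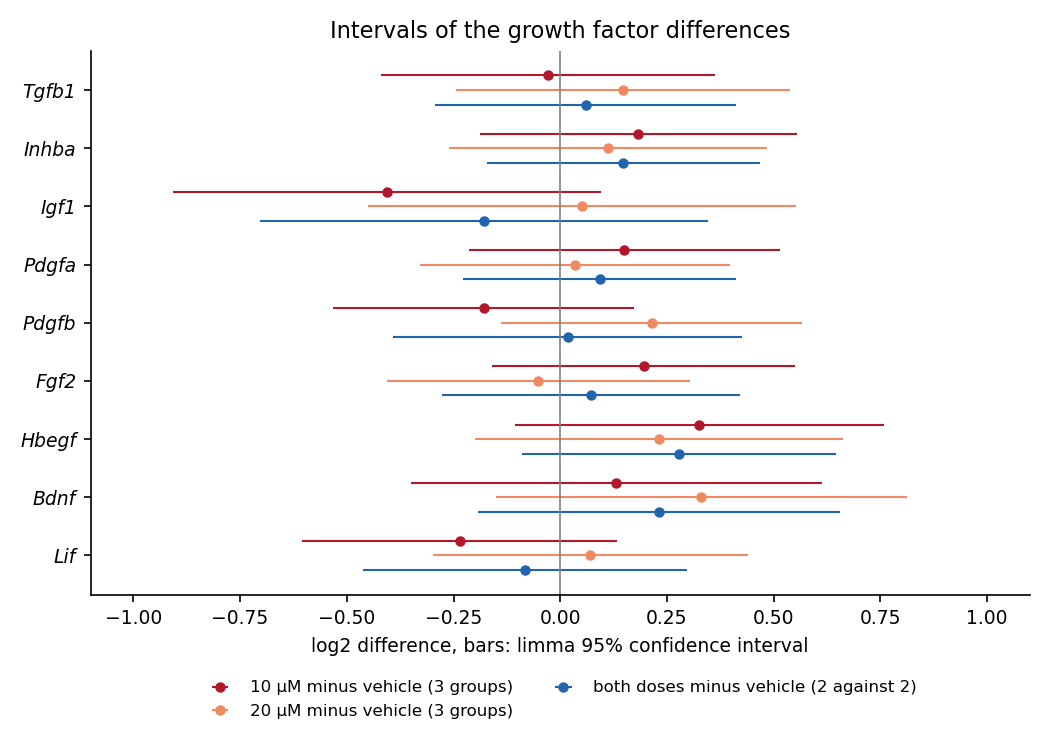
Log2 differences of the 9 growth factors (points) with limma's 95% intervals (bars) for each dose in the fit of 3 groups and for both doses together against vehicle. The intervals for a dose take their spread from the vehicle pair and from all genes. Every interval includes 0, and none reaches 1 in either direction, the widest on the low side being that of Igf1 at 10 µM (-0.91) and on the high side that of Bdnf at 20 µM (0.81).

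The genes around these ligands were described from 5 lists with 124 genes, of which 118 were measured. Counts of direction are given for each list, and of all genes 52.4% were higher at 10 µM and 49.3% at 20 µM. Whether the counts of the lists depend on the vehicle array was not tested. At 10 µM 2 of 118 reached a log2 difference of 1 (1.69%), both lower, beside 1.57% of all genes in either direction and 1.06% lower. At 20 µM and between the vehicle arrays 0 of 118 did. In the comparison of groups limma called 0 of 118, beside 0% of all genes. In the fit of 3 groups it called 1 of 118 at 10 µM, Mef2c, beside 1.59% of all genes, so the count of the lists did not exceed the share of all genes.

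Among 22 receptors, 11 were higher and 11 lower at 10 µM (median 0.012), and 12 and 10 at 20 µM (median 0.061). Acvr1b, which encodes the type I receptor ALK4 for activins, stood at 6.14 at 10 µM and 6.64 at 20 µM, against 7.28 and 7.02 in the vehicle arrays. Both doses lay below both vehicle arrays, and the log2 differences were -1.01 at 10 µM and -0.51 at 20 µM. The difference at 10 µM was not called in the fit of 3 groups (limma adjusted p = 0.0586) and was -0.88 against vehicle 2 alone and -0.99 after loess. Acvr2b, an activin type II receptor, stood at 5.61 at 10 µM and 6.61 at 20 µM, against 6.38 and 6.45 in the vehicle arrays. It was low on the 10 µM array alone. Tgfbr2, the type II receptor for transforming growth factor beta, differed by -0.56 at 10 µM and 0.20 at 20 µM, and its partner Tgfbr1 by 0.31 and -0.046.

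Of the 22 receptors, 13 had means that reached 5.04, the median of the deposited values, as did 57.5% of all genes, and 9 lay below it. Those 9 were Igf2r, Tgfbr3, Fgfr2, Fgfr3, Ntrk2, Lifr, Cntfr, Egfr and Erbb4. Among them Ntrk2, the TrkB receptor for Bdnf, Lifr, the ligand-binding chain for Lif, and Egfr, which binds the Hbegf product, had mean log2 levels of 4.01, 4.01 and 4.62. Il6st, the shared gp130 chain, was at 9.73 at 10 µM and 9.42 at 20 µM, against 9.57 and 9.53 in the vehicle arrays. Ntrk2, Lifr, Egfr and Il6st were described after their values were seen.

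Of 31 binding proteins, activators and antagonists, 19 were higher and 12 lower at 10 µM (median 0.028), and 16 and 15 at 20 µM (median 0.024). Furin, a protease that cleaves the precursors of transforming growth factor beta and activins, stood at 9.09 at 10 µM and 9.55 at 20 µM, against 9.65 and 9.62 in the vehicle arrays. Itgav, the alpha V integrin chain that takes part in activating latent transforming growth factor beta, stood at 8.97 at 10 µM and 9.59 at 20 µM, against 9.67 and 9.58 in the vehicle arrays. Both were lowest on the 10 µM array, by -0.55 and -0.66 from the vehicle mean, and neither was called in the fit of 3 groups (limma adjusted p = 0.150 and 0.108). Cd9, a tetraspanin that associates with the membrane form of the Hbegf product, differed by -0.51 at 10 µM and 0.28 at 20 µM. Igfbp6, an insulin-like growth factor binding protein, differed by 0.46 and -0.15.

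Of 26 related ligands, 17 were higher and 9 lower at 10 µM (median 0.10), and 20 and 6 at 20 µM (median 0.13). The shares of all genes higher were 52.4% and 49.3%. Of these, 14 lay below the median of all values. Csf1, the ligand of the microglial survival receptor Csf1r, stood at 10.49 at 10 µM and 10.09 at 20 µM, against 9.81 and 10.03 in the vehicle arrays. Osm, which encodes oncostatin M of the interleukin 6 family, differed by 0.51 at 10 µM and 0.25 at 20 µM, and Fgf1 by 0.48 and 0.29. The vehicle arrays differed by -0.39 for Osm, 0.046 for Fgf1 and 0.22 for Csf1. For Csf1, Osm and Fgf1 both doses lay above both vehicle arrays, with a limma adjusted p of 0.792 for each in the comparison of groups. Tgfb3 differed by -0.61 at 10 µM, beside 0.44 between the vehicle arrays.

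Of 25 signalling and target genes, 17 were higher and 8 lower at each dose, with medians of 0.055 at 10 µM and 0.13 at 20 µM. Beside this, 52.4% and 49.3% of all genes were higher. Dusp6, a phosphatase induced by ERK signalling that inactivates ERK, stood at 5.12 at 10 µM and 4.88 at 20 µM, against 5.40 and 5.72 in the vehicle arrays. Both doses lay below both vehicle arrays, but the level is near the median of all values. The log2 difference for nimodipine was -0.56 ± 0.17 (limma SE) and did not pass (limma adjusted p = 0.792). Other genes, among them Hbegf and Csf1, share that adjusted p, so it does not single out Dusp6. Spred1, an inhibitor of Ras signalling, differed by -0.82 at 10 µM and 0.16 at 20 µM. Tgif1, a repressor of Smad-driven transcription, differed by 0.54 and -0.25, and Smad4, the common Smad, by 0.11 and -0.40.

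Of 14 transcription factors known to act on genes of the 9, 5 were higher and 9 lower at 10 µM (median -0.16), and 8 and 6 at 20 µM (median 0.018). Mef2c, a MADS-box factor that works in microglia and neurons, stood at 7.28 at 10 µM and 8.46 at 20 µM, against 8.66 and 8.57 in the vehicle arrays. Its lowest value was that of the 10 µM array, and the log2 differences were -1.33 at 10 µM, or 2.52-fold lower, and -0.15 at 20 µM. The limma adjusted p of 0.0238 at 10 µM comes from the fit of 3 groups, in which the single 10 µM array gives no spread of its own. Its second probe set differed by -0.62 at 10 µM and 0.25 at 20 µM, and the mean of both gave -0.97 and 0.048. Epas1, which encodes HIF-2 alpha, differed by -0.76 at 10 µM and 0.082 at 20 µM, and Fosl2, an AP-1 subunit, by -0.75 and -0.17. Jun, another AP-1 subunit, differed by -0.32 and 0.50.

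**Figure D4:**
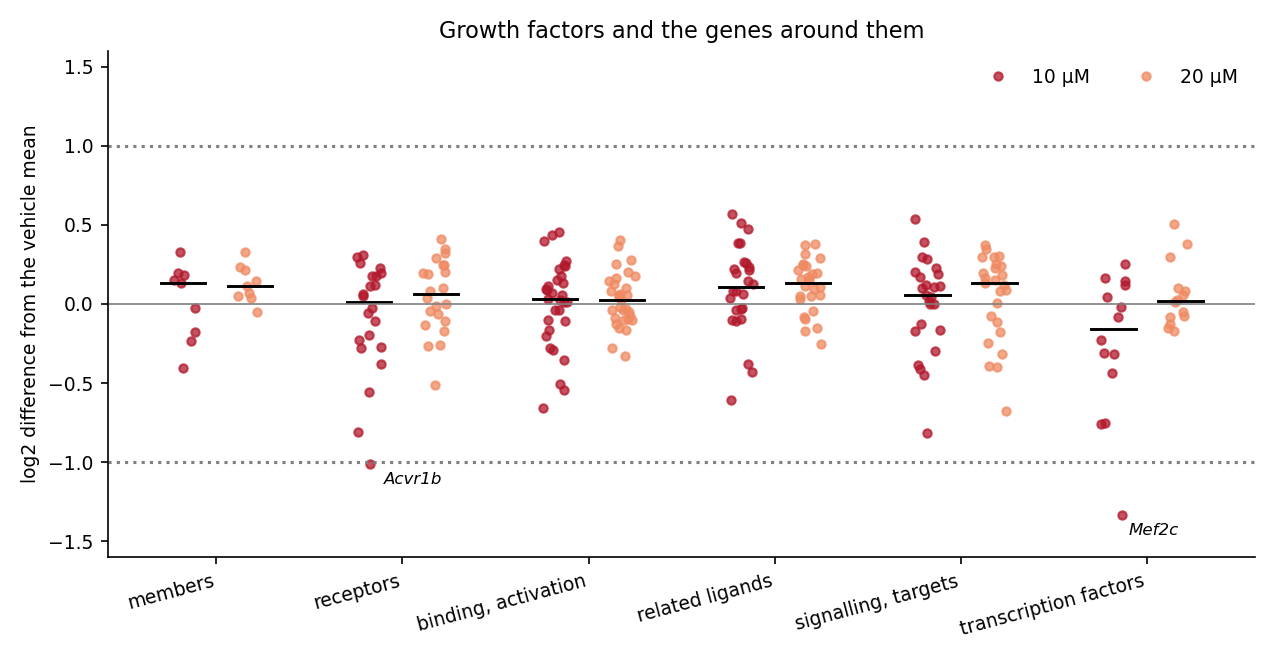
Log2 differences from the vehicle mean at 10 µM and 20 µM for the 9 growth factors and for the genes of the 5 lists (points, 1 per gene; black bars are medians, dotted lines mark 1 in either direction). The growth factors lie between -0.41 and 0.33, and only Mef2c (-1.33) and Acvr1b (-1.01), both at 10 µM, pass a dotted line.

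The identity of the cells was checked on 13 microglia and macrophage markers, and 11 of these had means that reached the median of all values. The brightest, Cd68, Csf1r, Ptprc, Tyrobp and Trem2, had means between 9.92 and 13.5. Itgam, Spi1 and Mertk had means of 8.90, 8.54 and 7.72. Cx3cr1, Aif1 and C1qa were lower, at 6.62, 5.84 and 5.40. P2ry12 and Tmem119, markers of resting microglia in tissue, lay below that median at 4.50 and 4.68. The log2 of the summed linear signal of the 13 was 14.22 at 10 µM and 14.32 at 20 µM. In the vehicle arrays it was 14.32 and 14.34. Cd68 alone makes up most of that sum, so the sum says little of the other markers. Of the 13, 11 were lower than the vehicle mean at 10 µM and 7 at 20 µM. Of all genes, 52.4% were higher at 10 µM and 49.3% at 20 µM. Itgam differed by -0.77 and Ptprc by -0.43 at 10 µM, and the 2 markers that were higher there, Spi1 and Tyrobp, by 0.16 and 0.056. In the comparison of groups limma called 0 of the 13. Of 9 oligodendrocyte markers, Mbp alone had a mean above 6 (7.57), and the others lay between 4.47 and 5.76. The summed oligodendrocyte signal was 8.95 at 10 µM and 9.08 at 20 µM, against 9.05 in each vehicle array. Mbp, the brightest of the 9, differed by -0.46 at 10 µM, where 6 of 9 were higher than the vehicle mean. At 20 µM 5 of 9 were higher. Summed signals of astrocyte, neuron and fibroblast or endothelial markers lay between 7.41 and 7.93 on the nimodipine arrays and between 7.55 and 7.84 on the vehicle arrays. The part of these markers in the values above was not tested. Over all genes the 10 µM array correlated with the others at 0.987 to 0.988, the 20 µM array with the vehicle arrays at 0.994, and the vehicle arrays with each other at 0.995.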

How the data were processed

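The deposited table gives log2 expression of each probe set on 4 arrays. Per the submitters' processing notes the authors used RMA in the Affymetrix Expression Console (version 1.2.1.20). RMA includes quantile normalization, which hides a change common to most genes. Per the labels, RNA was labelled with the WT PLUS kit. The table held 41345 probe sets, of which 23521 carry 1 gene symbol. The brightest per gene was kept (22180 genes). Symbols come from the array annotation, and gene coordinates and promoter windows from RefSeq (GRCm38.p6). Nimodipine was compared with vehicle by limma 3.58.1 in R 4.3.3 (lmFit, eBayes), adjusted by Benjamini-Hochberg over all genes, threshold 0.05. The fit was checked on simulated data with the same spread for every gene and no difference between the doses. That check required mean estimates near the planted sizes. It does not tell how often a change would be called in these data. Each dose had 1 array. In the fit of 3 groups, only the vehicle pair gives a gene its own spread (1 residual degree of freedom). The eBayes step moves that spread towards a value drawn from all genes. For Pdgfb the vehicle SD was 0.0049, but the limma SE at 10 µM in that fit was 0.14. The p values and intervals for a dose take the resulting spread as that of the dose, which the data cannot check. The number of arrays limits the precision. All 10 growth factors were named. From each surrounding list the 4 genes with the largest difference at either dose were named, and any past 1, among those whose mean reached the median of all values. The growth factors and lists were chosen with earlier results of these data known. Alternatives were other probe set rules, scalings, variance models, designs and thresholds, and leaving out arrays. Counts of direction without a vehicle array were added after seeing the data.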

Additional observations from a re-analysis of the deposited data

Results flagged for a closer look

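For 3 of the 9 growth factors the doses lay on opposite sides of both vehicle arrays. The difference between doses was not tested, and each dose is 1 array. Pdgfb was lower than both vehicle arrays at 10 µM and higher than both at 20 µM, with a difference of 0.39 (20 µM minus 10 µM, log2 scale). Lif had the same pattern with a difference of 0.30, but at 20 µM it exceeded vehicle 1 by only 0.0075. Fgf2 had the opposite pattern with -0.25, and at 20 µM it differed from vehicle 2 by only -0.031. Of all genes, 8.52% had the pattern of Pdgfb and Lif and 10.4% that of Fgf2. The vehicle arrays differed by 0.0069 for Pdgfb, -0.12 for Lif and -0.040 for Fgf2.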

How the results depend on the processing

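No growth factor was called, or differed by 1 or more, under any of the alternatives tried. The count of all genes called for nimodipine against vehicle stayed at 0 except without the 20 µM array, or with the 10 µM contrast in the fit of 3 groups, where it was 353 in both cases. Those cases are the same computation, because the 20 µM array adds nothing to the spread in the fit of 3 groups. The counts of growth factors past 1 were 0 throughout. Taking any value outside both vehicle arrays in place of 1 gave 7 at 10 µM and 7 at 20 µM. The sign of the group difference turned for Igf1 (0.025 without vehicle 1, -0.38 without vehicle 2), Tgfb1 (-0.037 without vehicle 1, 0.16 without vehicle 2) and Pdgfb (-0.015 with equal array medians). With 1 vehicle array left out, group differences ran from 0.14 to 0.42 for Hbegf, 0.044 to 0.42 for Bdnf, 0.079 to 0.22 for Inhba, 0.041 to 0.14 for Pdgfa, 0.052 to 0.092 for Fgf2, 0.014 to 0.021 for Pdgfb and -0.14 to -0.020 for Lif. Of 90 values of dose differences under alternatives, 5 turned sign and 8 moved by more than the vehicle SD. Those 8 were values of Pdgfb and Fgf2 (vehicle SD 0.0049 and 0.028) under equal array medians or loess. The other alternatives could not move a value that far. Each gene had 1 probe set, and leaving out 1 vehicle array always moves a dose difference by less than the vehicle SD. Of the 90 values, the furthest from 0 was 0.61 in size, for Igf1 at 10 µM against vehicle 1. The lowest adjusted p of a growth factor in the comparison of groups was 0.787 over the probe set, scaling and left-out vehicle settings. Without a vehicle array, Acvr1b at 10 µM had differences of -0.88 and -1.14. No paired analysis was possible because the nimodipine arrays carry no replicate number. Of the 9 genes, 5 lie near the median of all values, and 2 against 2 arrays left intervals up to 1.63-fold lower and 1.57-fold higher.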
